A study of Mus musculus with 6 samples.

Results

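The genes described here are the transcription factors and hormone receptors that mark luminal cells of the mammary gland: Foxa1, Gata3, Esr1, Pgr, Prlr, Cited1, Elf5, Tfap2a, Tfap2b and Tfap2c. They were chosen by name, and every non-control probe of the array whose RefSeq accession belongs to them was taken, which gave 15 probes for the 10 genes among 55681 probes and 20660 genes with a symbol. RNA came from spheres, cell clusters grown in suspension without serum, derived from mammary tumors of FRS2beta knock-out mice (knockout) and of FRS2beta heterozygous mice (hetero). FRS2beta, encoded by Frs3, is an adaptor protein of receptor tyrosine kinases. Per the labels' protocols, the medium of all spheres was DMEM/F12 supplemented with B27, 20 ng/mL each of EGF and bFGF, and 2 mg/mL of heparin. Each genotype had 3 arrays, and the question of the design was how expression differs between the genotypes. The hetero mice still carry a mutant Frs3 allele, and a wild-type group is not analysed here. The strain, the age of the mice, the driver of the tumors and the number of mice behind each array are not given in the sources used here, so the p-values reflect the spread among these arrays alone, which could be technical.

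Luminal cells line the ducts and alveoli of the mammary gland. A hormone-sensing type carries the estrogen receptor ERα (Esr1) and the progesterone receptor (Pgr), while an alveolar type responds to prolactin through its receptor (Prlr) and makes milk. FOXA1 opens chromatin for ERα, GATA3 is needed to form and keep luminal cells, and CITED1 is a coactivator that binds ERα. ELF5 drives the alveolar fate downstream of prolactin. The AP-2 factors encoded by Tfap2a, Tfap2b and Tfap2c act in ectoderm and mammary epithelium, and TFAP2C regulates luminal genes, among them ESR1, in human breast cancer cells.

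The 75th percentile of the processed signal, to which each array was scaled, was 465 to 487 on the knockout arrays and 404 to 416 on the hetero arrays. Between 60.5% and 69.6% of probes were well above background on the knockout arrays and 60.4% to 61.3% on the hetero arrays. Signals below are processed signals before scaling, and scaled log2 signals are log2 values minus the array's 75th percentile. The Frs3 probe had signals of 1.97, 1.97 and 2.91 in knockout spheres, against 2.61, 16.1 and 6.47 in hetero spheres. It was well above background on 0 of 3 knockout arrays and 1 of 3 hetero arrays, so it gave no fold and does not check the labels.

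Promoter windows from RefSeq (GRCm38.p6, 250 bases before to 50 bases after the start) were found for 9 of the 10 genes, 16 windows in all. Shown are examples picked after the matches were seen: Foxa1, Gata3 and Tfap2b among the factors that rose in knockout spheres, and the first of the 2 windows of Esr1, which did not pass the test. Capitals mark every match, on either strand, to 5 motifs. The AP-2 motif was searched as GCCNNNGGC. The forkhead motif was TGTTTAC. The GATA motif was AGATAA. The nuclear receptor motif was AGGTCA. The STAT motif was TTCNNNGAA. No match in these 4 windows overlapped another.
Foxa1, chr12:57546062-57546361, minus strand: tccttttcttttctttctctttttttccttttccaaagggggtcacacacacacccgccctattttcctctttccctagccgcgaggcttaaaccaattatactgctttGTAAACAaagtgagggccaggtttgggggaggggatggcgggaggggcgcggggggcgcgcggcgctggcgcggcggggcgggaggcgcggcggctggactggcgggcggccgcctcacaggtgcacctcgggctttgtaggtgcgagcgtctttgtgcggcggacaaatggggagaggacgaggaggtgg
Gata3, chr2:9878551-9878850, minus strand: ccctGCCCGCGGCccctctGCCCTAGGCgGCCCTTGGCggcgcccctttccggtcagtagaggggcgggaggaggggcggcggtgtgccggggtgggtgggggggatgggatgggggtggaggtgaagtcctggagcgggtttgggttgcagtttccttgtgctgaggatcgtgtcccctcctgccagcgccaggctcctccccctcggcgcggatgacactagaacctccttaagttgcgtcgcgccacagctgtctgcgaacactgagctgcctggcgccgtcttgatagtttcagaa
Tfap2b, chr1:19211804-19212103, plus strand: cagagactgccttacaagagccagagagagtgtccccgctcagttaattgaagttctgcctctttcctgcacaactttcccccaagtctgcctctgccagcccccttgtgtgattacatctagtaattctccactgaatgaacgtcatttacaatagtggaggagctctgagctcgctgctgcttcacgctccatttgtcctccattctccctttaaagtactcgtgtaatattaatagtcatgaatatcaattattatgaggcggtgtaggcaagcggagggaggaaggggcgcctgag
Esr1, chr10:4611739-4612038, plus strand: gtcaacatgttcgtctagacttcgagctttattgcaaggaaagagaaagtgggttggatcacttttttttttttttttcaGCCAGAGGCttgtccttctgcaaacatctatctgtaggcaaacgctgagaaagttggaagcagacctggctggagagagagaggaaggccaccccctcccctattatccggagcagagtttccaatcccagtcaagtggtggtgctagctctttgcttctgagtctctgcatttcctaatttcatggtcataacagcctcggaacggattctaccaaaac
The Foxa1 window held 1 forkhead match, the Gata3 window 3 AP-2 matches close together at its upstream end and the Esr1 window 1 AP-2 match. No searched letters were found in the Tfap2b window, nor in the 2 windows of Elf5, which are not shown. Over 32817 windows of the same length, 16.6% held the AP-2 letters, 3.65% the forkhead letters, 11.2% the GATA letters, 16.3% the nuclear receptor letters and 8.29% the STAT letters. The windows of Foxa1 and Gata3 were rich in G and C (62.3% and 67.3%) with 26 and 22 CG pairs, while those of Tfap2b and Esr1 had 48.3% and 46.3% with 8 and 6 CG pairs. A match is a description of letters and not a binding site.

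Knockout spheres carried more RNA of 9 of the 10 genes than hetero spheres, and for Esr1 the test was not passed. Among the genes above background on all 6 arrays, the rises ran from 1.6-fold for Cited1 to 11.6-fold for Elf5. Of all 15847 genes tested, 27.9% were called higher and 32.5% lower in knockout spheres, at an adjusted p of 0.05 in limma with Benjamini-Hochberg adjustment. Of the 10 genes, 8 were called with a change of 2-fold or more, which 6.59% of all genes reached in that direction. The 10 genes had a median log2 fold change of 2.65, against -0.03 over all genes. Scaled to spike-in RNA, which raised the median of all genes to 0.39, 90.3% of all calls were higher in knockout spheres, against 46.1% with the scaling used here. In 9 of the 10 genes the lowest knockout array lay above the highest hetero array, as in 31.6% of all genes.

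A gene was tested if a probe of it was well above background on at least 3 of the 6 arrays. All 10 genes passed this filter, but Tfap2b passed through the knockout arrays alone, and Foxa1 and Pgr were above background on 1 hetero array each. For these 3 genes the filter itself required high knockout signals. Neither their number nor their share in the counts and the median above is therefore support for a rise. The other 7 genes were above background on all 6 arrays, and 6 of them were called higher. Of these 6, all but Cited1 (0.68) rose 2-fold or more. The middle log2 fold change of the 7 genes was that of Prlr at its brighter probe, 2.11. With probes averaged Prlr had 1.17. Of the 15 probes, 12 passed the filter and 10 of these were called higher in the fit over 35442 probes, in which 19.4% were. Among these 10 are the probes of Foxa1, Pgr and Tfap2b and a dim Tfap2a probe, which passed the filter only or mainly through knockout arrays. The probe count is therefore no support for a rise either. The 3 probes left out were 2 of the 3 Esr1 probes and 1 of the 2 Pgr probes.

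**Figure D1:**
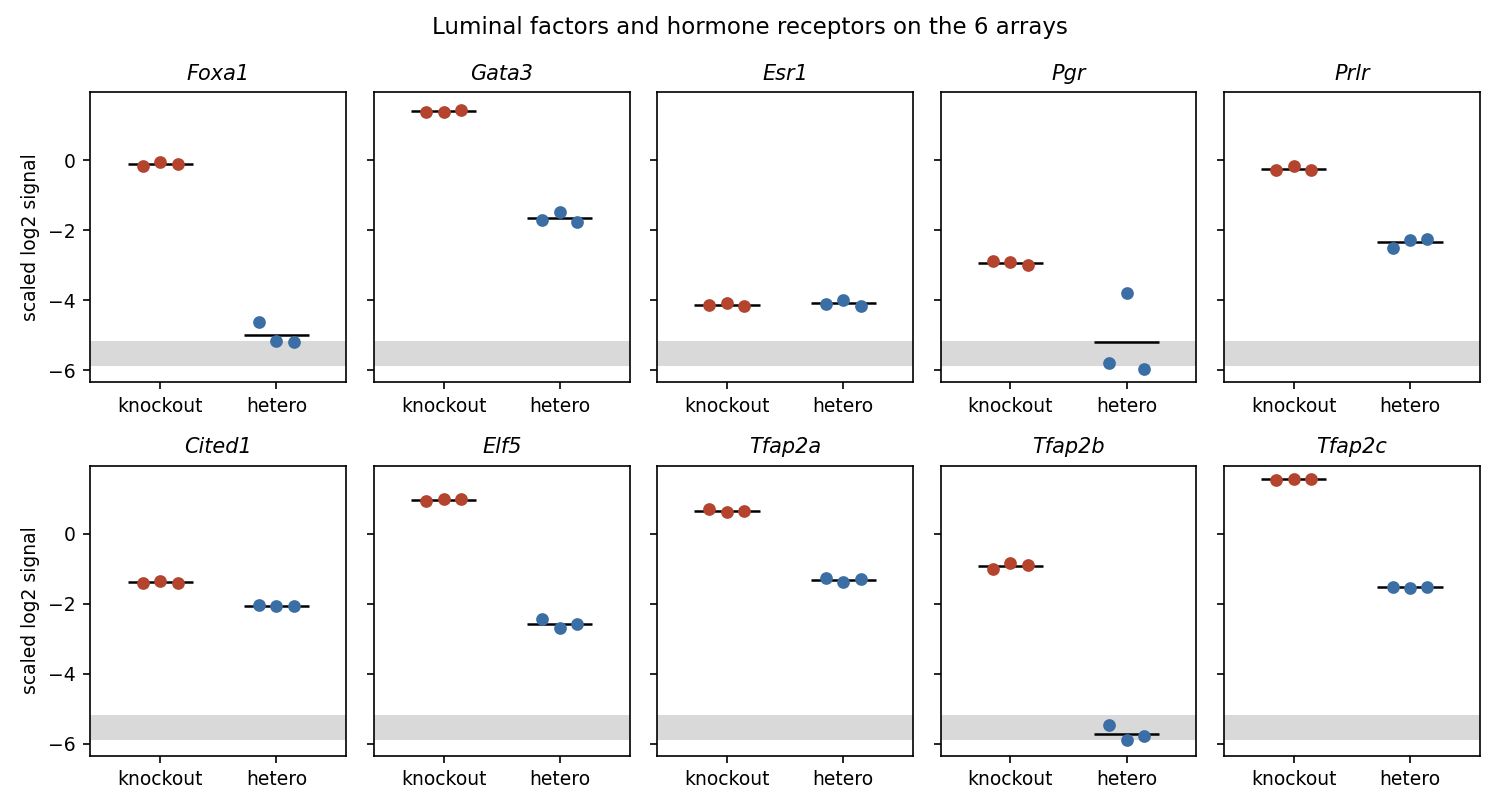
Scaled log2 signal (vertical axis) of the brightest tested probe of each gene on the 3 knockout arrays (left in each panel) and 3 hetero arrays (right); points are arrays, black lines are means, and the grey band spans the lowest signals counted as well above background on the 6 arrays (-5.86 to -5.20). The points of a genotype lie close together except for Pgr, where hetero replicate 2 stands above the other two, and Esr1 alone has overlapping genotypes.

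Foxa1 had signals of 413, 474 and 444 in knockout spheres, against 16.7, 11.1 and 11.3 in hetero spheres. The knockout arrays were far above the hetero arrays, and 1 of the 3 hetero arrays, replicate 1, was above background. The scaled log2 signal averaged -0.11 ± 0.07 in knockout spheres and -5.00 ± 0.33 in hetero spheres (SD, n = 3 each), a log2 fold change of 4.90 ± 0.17 (SE, limma adjusted p = 9.07e-06). With hetero levels at or near background the size of this rise is uncertain: with normexp background correction the log2 fold change was 2.71, and it kept its call.

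Gata3 was well above background in every array. Its signals were 1200, 1270 and 1300 in knockout spheres, against 127, 146 and 122 in hetero spheres, with no overlap. The log2 fold change was 3.04 ± 0.08 (8.23-fold, adjusted p = 3.56e-06 in limma), and it was 2.50 with normexp. Gata3 thus stood among the larger changes, with 1.33% of all genes above it.

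Of the receptors, Pgr and Prlr were called higher and Esr1 was not called. Esr1 was dim on this array, and its tested probe, printed 10 times on each array, had mean signals of 26.2, 28.9 and 26.6 in knockout spheres, against 24.0, 25.3 and 23.2 in hetero spheres. Its scaled log2 signals were -4.15, -4.08 and -4.17 in knockout spheres and -4.10, -3.99 and -4.16 in hetero spheres. The genotypes overlapped, and the difference of -0.05 ± 0.05 did not pass (adjusted p = 0.493 in limma). Its 95% interval ran from -0.18 to 0.09, so on this scale a change of the size seen in the other genes lay outside it. Within an array the 9 or 10 usable spots had an SD of 0.16 to 0.22 on the knockout arrays and 0.25 to 0.30 on the hetero arrays, which is larger than the difference between genotypes. The sign and the call rest on the scaling and the background correction: scaled to spike-in RNA the difference was 0.38 (adjusted p = 0.000944), and with normexp it was -0.17 (adjusted p = 0.0024). Over all the settings tried its adjusted p ran from 0.000944 to 0.995. Of the other Esr1 probes, 1 stayed near background on all 6 arrays, and 1 was well above it on a single knockout array.

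Pgr was called higher, but with the widest error of the 10 genes. Its tested probe had signals of 62.6, 65.4 and 60.3 in knockout spheres, against 7.35, 28.8 and 6.66 in hetero spheres. The knockout arrays were close to each other, while hetero replicate 2, at -3.81 on the scaled log2 scale, lay nearer to the knockout mean of -2.93 than to the hetero arrays at -5.81 and -5.97, and these were not well above background. The log2 fold change was 2.27 ± 0.60 (95% interval 0.75 to 3.79, adjusted p = 0.0222 in limma). Without hetero replicate 2 it was 2.96 (adjusted p = 2.31e-05). The call was lost without any single one of the 3 knockout arrays or without hetero replicate 1 or 3, with an adjusted p of 0.0584 to 0.0675. With normexp the log2 fold change was 0.54, and over the settings tried its adjusted p ran from 2.31e-05 to 0.0675. The second Pgr probe, above background on 1 knockout array and on no hetero array, had signals of 18.1, 8.93 and 8.53 in knockout spheres and 6.24, 3.40 and 3.90 in hetero spheres. This probe did not pass the filter, and no fold is given. It was tested without the filter and with the deposited table, and not called (adjusted p = 0.114 and 0.0965 in the limma fits over probes).

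Prlr was higher in knockout spheres, and its 2 probes, which the array assigns to the same transcript, differed. The brighter probe had signals of 385, 437 and 392 in knockout spheres, against 71.6, 83.8 and 87.0 in hetero spheres. It did not overlap between genotypes and gave a log2 fold change of 2.11 ± 0.09 (4.31-fold, adjusted p = 1.59e-05 in the limma fit over genes). The other probe had signals of 90.7, 104 and 92.7 in knockout spheres, against 64.9, 74.7 and 71.2 in hetero spheres. Its log2 fold change of 0.23 ± 0.07 missed the threshold in the limma fit over probes (adjusted p = 0.0545). The difference between the probes was 1.88 log2 units larger in knockout spheres, with an exact permutation p of 0.10 (two-sided), the smallest that 3 against 3 arrays can give. With the probes averaged the log2 fold change of Prlr was 1.17, and it kept its call. Which of the receptor's transcript forms each probe reads was not analysed here.

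Cited1 had the smallest of the 9 rises. Its signals were 175, 190 and 181 in knockout spheres, against 99.6, 95.5 and 99.5 in hetero spheres, without overlap. The scaled log2 signal averaged -1.39 ± 0.03 in knockout spheres and -2.06 ± 0.02 in hetero spheres (SD, n = 3 each), a difference of 0.68 ± 0.02 (1.6-fold, SE, limma adjusted p = 1.02e-05). It was 0.43 with normexp and 1.1 with spike-in scaling.

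Elf5, the alveolar factor, rose 11.6-fold. Its signals were 878, 958 and 943 in knockout spheres, against 75.6, 62.1 and 69.0 in hetero spheres, all well above background. The log2 fold change was 3.54 ± 0.07 (adjusted p = 1.21e-06 in limma), and 111 of all genes tested had a larger one. With normexp it was 2.64.

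Tfap2a, Tfap2b and Tfap2c were all called higher, and they differed in how far. Tfap2c had signals of 1350, 1440 and 1410 in knockout spheres, against 142, 138 and 144 in hetero spheres. Its replicates were the closest of the 10 genes (SD of 0.01 log2 units in each genotype), and the log2 fold change was 3.1 ± 0.02 (8.56-fold, adjusted p = 1.18e-07 in limma). Tfap2a, at its brighter probe, had signals of 757, 746 and 752 in knockout spheres, against 171, 157 and 167 in hetero spheres. This was a smaller change of 1.97 ± 0.04 (3.92-fold, adjusted p = 1.21e-06 in limma), whose 95% interval of 1.88 to 2.07 lay below that of Tfap2c, 3.05 to 3.15.

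A second, dimmer Tfap2a probe, for another transcript, was above background on the 3 knockout arrays and on no hetero array, and it was at least 3.29-fold higher (adjusted p = 0.00475 in the limma fit over probes). The 95% interval of its log2 fold change, 1.77 to 4.09, held that of Tfap2c. The smaller change of Tfap2a thus rests on the brighter probe. Tfap2b had signals of 232, 274 and 255 in knockout spheres, against 9.27, 6.70 and 7.49 in hetero spheres, none of which was well above background. Its rise is therefore a bound, at least 23.5-fold. Such a bound sets the knockout mean against, for each hetero array, the higher of the probe's own signal and the lowest signal counted as well above background. The probe had measured means of -0.91 ± 0.09 in knockout spheres and -5.73 ± 0.23 in hetero spheres on the scaled log2 scale (SD, n = 3 each, limma adjusted p = 3.0e-06). With normexp, whose offset of 50 is above the hetero signals of this probe and shrinks changes of dim probes, the log2 fold change was 2.05, below this bound of 4.56. The bounds given here thus hold for the processed signal alone. The dim Tfap2a probe likewise had a normexp log2 fold change of 0.41 against its bound of 1.72.

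**Figure D2:**
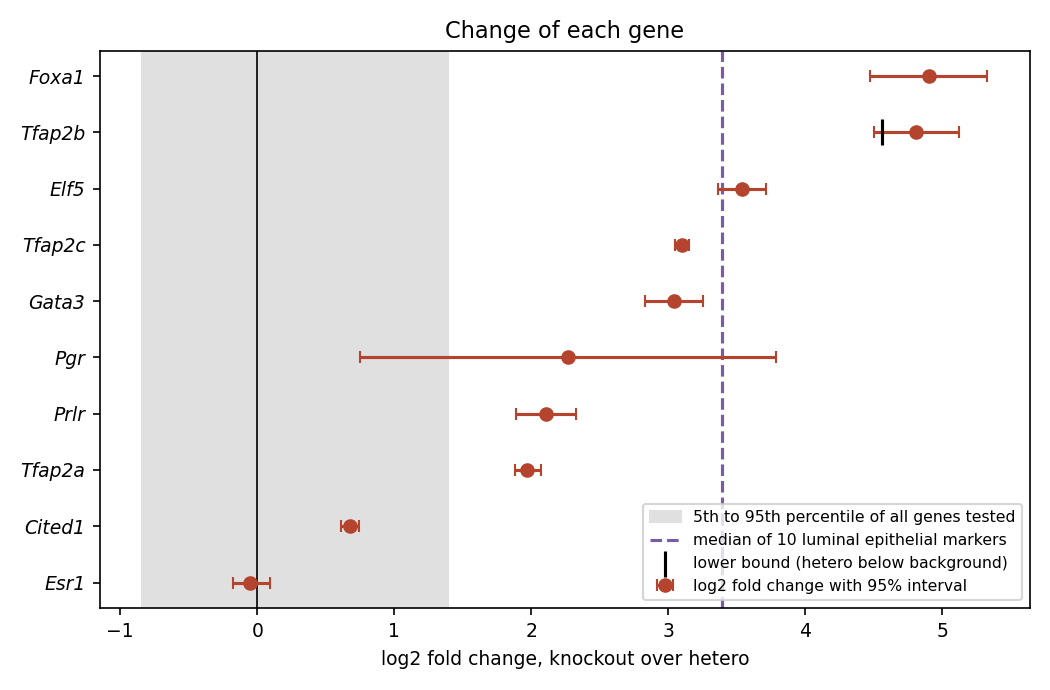
Log2 fold change, knockout over hetero, of each gene (horizontal axis) with its 95% interval from limma; the grey band is the 5th to 95th percentile of all 15847 genes tested (-0.84 to 1.39), the dashed line the median of 10 luminal epithelial markers (3.39) and the black tick the bound for Tfap2b (4.56). Foxa1 and Tfap2b, whose hetero signals were at or near background, are drawn farthest to the right, Cited1 and Esr1 lie inside the grey band, and Pgr has the widest interval.

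In order of log2 fold change, the 7 genes above background on all 6 arrays were Elf5 (3.54), Tfap2c (3.1), Gata3 (3.04), Prlr (2.11), Tfap2a (1.97), Cited1 (0.68) and Esr1 (-0.05). This order rests on the brightest probe of each gene. With probes averaged Prlr had 1.17 and came after Tfap2a, which had 2.45. The 95% intervals of Tfap2c and Gata3 overlapped, as did those of Prlr and Tfap2a. Foxa1, Tfap2b and Pgr are given no place in this order, since their hetero signals were mostly not above background. All 6 arrays lay on 1 slide. Within its first row (2 arrays per genotype) and its second row (1 per genotype), the log2 fold change of Gata3 was 2.96 and 3.20, that of Tfap2c 3.1 in each, that of Pgr 1.91 and 2.98 and that of Esr1 -0.06 and -0.01. Each slide column held arrays of a single genotype, so column and genotype cannot be told apart.

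General markers of luminal epithelium moved with these genes. Of 10 such markers, 9 were higher in knockout spheres, among them the keratins Krt8 (3.25 ± 0.02 log2 units, SE) and Krt7 (3.65 ± 0.02), and the tenth, Muc1, did not pass (-0.65 ± 0.48, adjusted p = 0.284 in limma). Their signals, each divided by the array's 75th percentile and summed, came to 129 to 132 in knockout spheres and 11.9 to 12.3 in hetero spheres. In bulk RNA, fewer cells of a type and less RNA per cell cannot be told apart, and the part of cell composition in the changes of the 10 genes was not tested.

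The 10 genes were also set against the mean log2 signal of these luminal markers on the same array, a description chosen after the data were seen and not tested. Tfap2c lay -0.43 ± 0.07 from the marker mean in knockout spheres and -0.44 ± 0.09 in hetero spheres (SD, n = 3 each), and Gata3 -0.60 ± 0.11 in knockout spheres and -0.54 ± 0.18 in hetero spheres. This near match rests on Muc1: without it the other 9 markers differed by 3.51 on average, and the difference between genotypes was -0.42 for Tfap2c and -0.47 for Gata3. Foxa1 lay at -2.10 ± 0.09 in knockout spheres and -3.90 ± 0.41 in hetero spheres, a difference of 1.8, and Tfap2b had one of 1.72. These differences were 1.39 and 1.3 without Muc1, and 0.00 and -0.66 with normexp, so the order of these genes against the markers turned with the background correction.

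Esr1 lay at -6.12 ± 0.05 in knockout spheres and -2.98 ± 0.13 in hetero spheres, and Cited1 at -3.38 ± 0.06 in knockout spheres and -0.96 ± 0.09 in hetero spheres. The signal per luminal marker signal was thus lower in knockout spheres for both genes. Esr1 itself was dim and changed by -0.05, so its difference mostly repeats the rise of the marker mean, 3.1. With and without Muc1, with processed signals and with normexp, the difference was -3.56 to -2.88 for Esr1 and -2.84 to -2.28 for Cited1. For Prlr it was -1.6 to -0.99 and for Tfap2a -1.54 to -1.07. For Pgr, whose hetero arrays spread widely, it was -2.51 to -0.83, and for Elf5 it changed sign, from -0.41 to 0.44. Such differences do not depend on the scaling between arrays, but they depend on the markers chosen. Against the mean of the basal and myoepithelial markers described below, likewise not tested, the difference was 0.69 for Prlr and 0.55 for Tfap2a. Only Esr1 (-1.47) and Cited1 (-0.74) were lower in knockout spheres there.

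**Figure D3:**
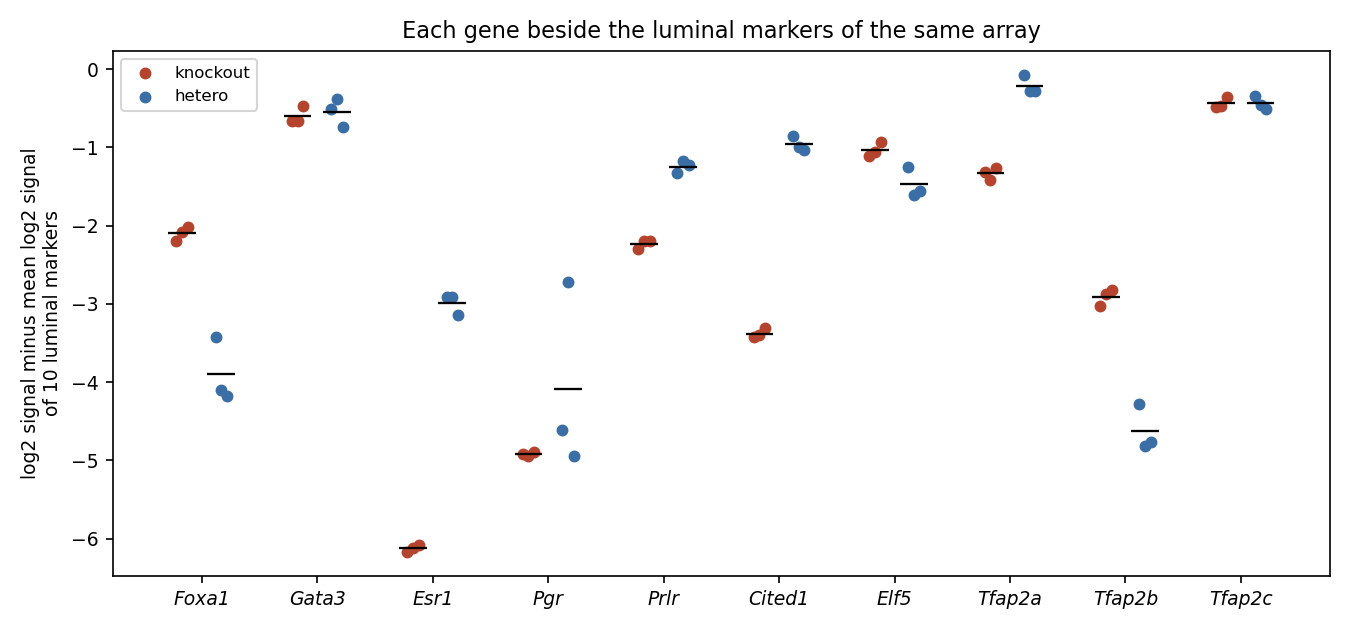
Log2 signal of each gene minus the mean log2 signal of 10 luminal epithelial markers on the same array (vertical axis), for the 3 knockout arrays (left point group of each gene) and the 3 hetero arrays (right), with black lines at the means. The knockout points of Esr1 and Cited1 lie far below the hetero points (differences of -3.14 and -2.42). For Esr1, whose own log2 fold change was -0.05, this mostly repeats the rise of the markers. The places of Foxa1 and Tfap2b turned with the background correction and those of Tfap2c and Gata3 with the inclusion of Muc1.

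Basal and myoepithelial markers were also mostly higher in knockout spheres, 8 of 10 with 1 lower and 1 not called. Among the higher ones were Krt14 (2.97 ± 0.02) and Krt5 (2.45 ± 0.02). Their summed level was 110 to 112 in knockout spheres and 28 to 31 in hetero spheres. All 9 tested macrophage markers were lower, among them Lyz2 (-1.95 ± 0.02) and Adgre1 (-2.48 ± 0.03, and -1.54 with normexp), with a summed level of 7.51 to 7.59 in knockout spheres and 22.8 to 23.0 in hetero spheres. Of 10 fibroblast markers, 7 were lower and 2 higher (5 and 3 with spike-in scaling), and their summed level was 1720 to 1780 in knockout spheres and 2250 to 2480 in hetero spheres.

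Endothelial markers had 4 of 8 lower and 2 higher, but 0 lower and 5 higher with spike-in scaling (summed level 22.5 to 23.6 in knockout and 25.6 to 26.4 in hetero spheres), and adipocyte markers 4 of 6 lower, but 2 lower and 2 higher with spike-in scaling (68.8 to 72.2 and 154 to 159), with Car3 and Cidec near background on all arrays. Of 4 tested T and B cell markers, 1 was lower (0 with spike-in scaling) and 1, Ms4a1, was at least 5.31-fold higher (summed level 6.94 to 7.87 in knockout and 8.35 to 9.85 in hetero spheres), while Cd2, Cd3d and Cd8a stayed near background on all arrays.

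Close relatives of the 10 genes went both ways. Of 15 paralogs 11 were tested, of which 5 were called higher and 5 lower (median log2 fold change -0.03, equal to that of all genes), and 8 higher and 1 lower with spike-in scaling. Some of the higher ones passed the filter through knockout arrays alone. Of the 9 tested when signal above background was asked on all 6 arrays, 3 were higher and 5 lower. Cited4, a coactivator of AP-2 factors, rose by 3.97 ± 0.03 log2 units (15.7-fold, 3.39 with normexp) and Cited2 by 0.96 ± 0.05, beside the 0.68 of Cited1. The epithelial ETS factor gene Elf3 was at least 3.74-fold higher, with a normexp log2 fold change of 0.33. Gata6, which acts in endoderm and mesoderm, fell by 1.29 ± 0.03 (SE; each adjusted p in limma at most 2.86e-05).

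Other transcription factors of luminal cells were higher in 9 of 16 genes and lower in 4, with a median of 0.14, and higher in 14 and lower in 1 with spike-in scaling. With signal above background asked on all 6 arrays, 9 of 15 were higher and 4 lower, with a median of 0.11. Ehf, an epithelial ETS factor, rose by 4.11 ± 0.05 log2 units (2.52 with normexp), and Myb by 3.61 ± 0.13 (1.78 with normexp). Msx1 rose by 1.83 ± 0.03 and Runx1, a factor of luminal and other lineages, by 0.87 ± 0.03. Spdef, Xbp1 and Tbx3, chosen for mention after their values were seen, lay near 0 at -0.06, -0.14 and 0.08.

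Among 22 further hormone receptors, 5 were called higher and 9 lower, with a median of -0.02, whereas 14 were higher and 3 lower with spike-in scaling. The oxytocin receptor gene Oxtr encodes a myoepithelial receptor that serves milk let-down, and it is also among the basal markers. It rose by 2.99 ± 0.05 log2 units (2.32 with normexp). The vitamin D receptor gene Vdr rose by 2.18 ± 0.04. The thyroid hormone receptor genes moved apart, Thra with a fall by 0.99 ± 0.04 (0.57 with spike-in scaling) and Thrb with a rise of 0.51 ± 0.03 (0.93 with spike-in scaling). The second estrogen receptor gene Esr2 (-0.01, not called) was picked for mention after its value was seen.

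Coregulators of nuclear receptors changed little. Of 20 tested, 5 were called higher and 9 lower, the median was -0.05 and none reached a fold of 2. With spike-in scaling 18 were higher and 0 lower, with a median of 0.38. Nrip1 and the GATA partner gene Zfpm1 rose by 0.49 ± 0.03 and 0.48 ± 0.03. Ncoa1 and Zfpm2 fell by 0.39 ± 0.03 and 0.31 ± 0.03, and with spike-in scaling the signs of these falls turned (0.03 and 0.11).

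Genes known to respond to estrogen, many of them from human breast cancer cells, were higher in 8 of 18 and lower in 4, with a median of 0.17, and higher in 15 and lower in 1 with spike-in scaling. With signal above background asked on all 6 arrays, 7 of 15 were higher and 4 lower, with a median of 0.13. Myb, which is also among the luminal factors, Tpd52l1 (1.64 ± 0.05) and Fhl2 (0.37 ± 0.02) rose. Igfbp4, a binding protein of insulin-like growth factors, fell by 2.34 ± 0.06. Greb1, a common readout of ERα in human cells picked here after its value was seen, had 0.21 with a 95% interval of -0.01 to 0.42.

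Of 16 mediators of progesterone and of signals between luminal and basal cells, 7 were higher and 4 lower, with a median of 0.00, and 11 were higher and 4 lower with spike-in scaling. Tnfsf11, which encodes RANK ligand, a main progesterone mediator, fell by 2.15 ± 0.03 log2 units (0.225 of the hetero level) and the progestin-induced Zbtb16 by 1.78 ± 0.05, beside the rise of Pgr. Cxcl12, a chemokine made by stroma, had a log2 fold change of -1.52 ± 0.03 at its brightest probe and -2.65 at its other probe, and Id4, an inhibitor of helix-loop-helix factors, rose by 3.12 ± 0.06. Wnt4, another progesterone mediator, and the amphiregulin gene Areg had -0.02 (not called) and 1.63, both picked after their values were seen.

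For the signalling chain below the prolactin receptor the direction depended on the scaling. Of 15 genes tested, 9 were lower and 2 higher, with a median of -0.21, while with spike-in scaling 3 were lower and 10 higher, with a median of 0.21. Socs3, an inhibitor of cytokine signalling, fell by 0.93 ± 0.03, the prolactin effector Stat5a by 0.79 ± 0.05 and the growth hormone receptor gene Ghr by 0.74 ± 0.04. With spike-in scaling their log2 fold changes were -0.50, -0.37 and -0.31. Socs2 rose by 1.49 ± 0.05.

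Genes of milk and alveoli were higher in 7 of 12 tested and lower in 1, with a median of 0.43, beside the 3.54 of Elf5, and higher in 10 and lower in 1 with spike-in scaling. Some of the higher ones passed the filter through knockout arrays alone. With signal above background asked on all 6 arrays, 5 of 10 were higher and 1 lower, with a median of 0.32. Csn1s1 rose by 6.32 ± 0.04 log2 units (5.08 with normexp) and the lactoferrin gene Ltf by 4.80 ± 0.14, and Muc15 was at least 6.47-fold higher, with 0.76 log2 units under normexp. Xdh, which acts in milk fat secretion, fell by 0.74 ± 0.03 (0.31 with spike-in scaling). Csn1s2a, Csn2 and Glycam1 stayed near background on all 6 arrays and were not tested.

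A mixed list of further genes described in luminal cells, which holds surface proteins beside the nuclear Cited2 and the secreted Wnt5a, Ptn and Mfge8, had 9 of 11 higher and 2 lower, with a median of 0.64. Those 4 were among the 9. Cd24a (3.44 ± 0.03) and Prom1 (2.19 ± 0.02) rose. The angiotensin receptor gene Agtr1a fell by 3.92 ± 0.07 (log2 fold change -2.80 with normexp) and Ly6a by 1.99 ± 0.02.

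**Figure D4:**
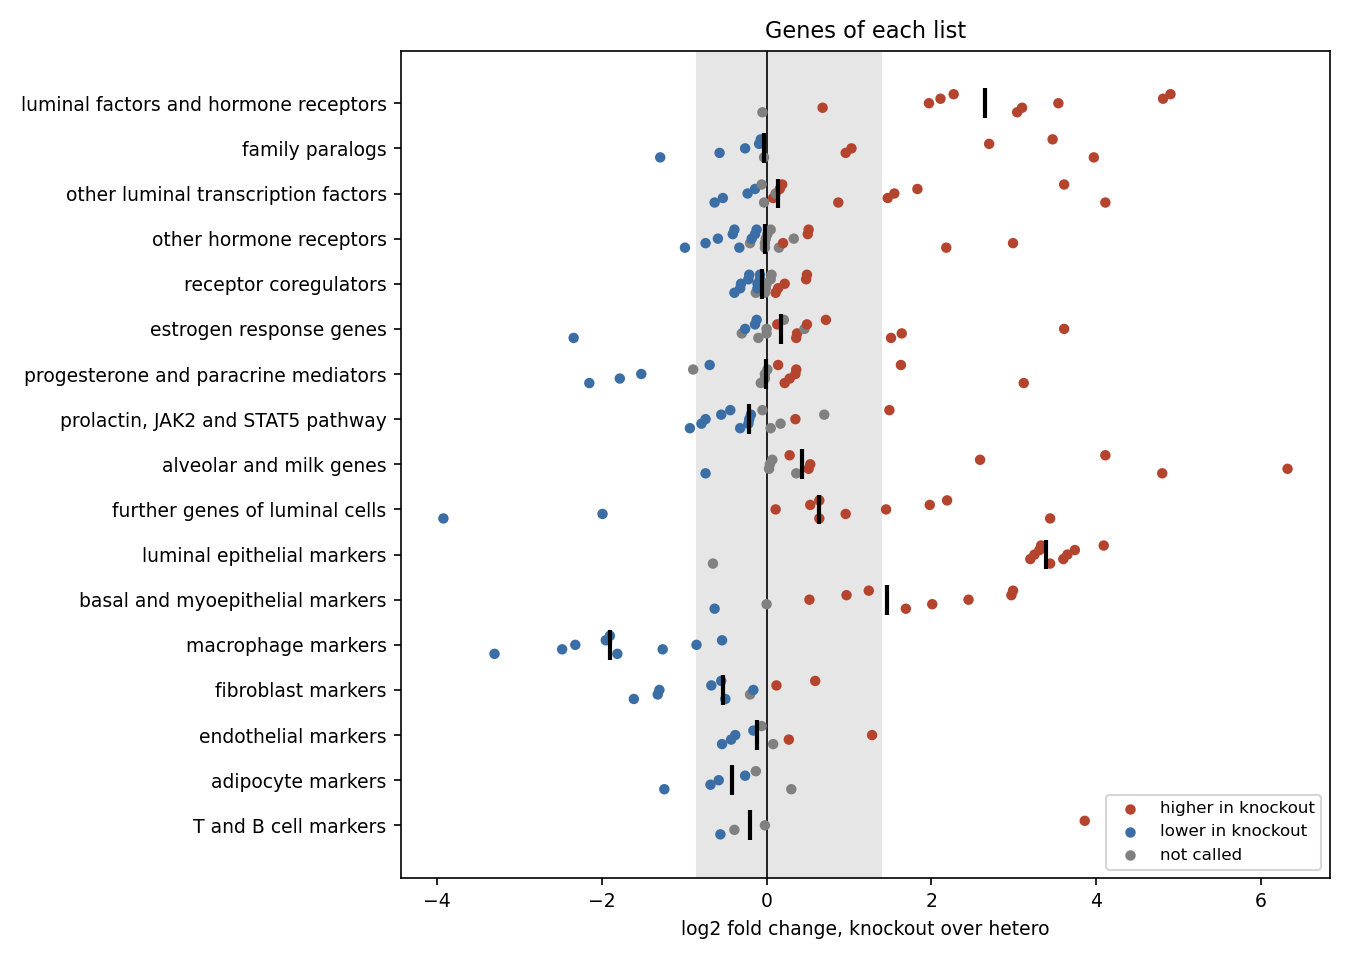
Log2 fold change, knockout over hetero (horizontal axis), of each tested gene in the 10 luminal factors and hormone receptors (top row), the pathway lists and the cell type marker lists; red points were called higher, blue lower and grey not called, black bars are list medians and the grey band is the 5th to 95th percentile of all genes (-0.84 to 1.39). The medians of the luminal factors (2.65) and luminal markers (3.39) stand to the right, and that of the macrophage markers (-1.90) to the left. The 2.65 includes Foxa1, Tfap2b and Pgr, which passed the filter mainly through knockout arrays. Paralogs, coregulators and other hormone receptors centre near 0 with the scaling used here. With spike-in scaling their medians were 0.39, 0.38 and 0.40.

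By the distance between profiles over the 6 arrays, each gene centred on its own mean, the genes most like Foxa1 were Tfap2b (0.218), Clca3a2 (0.423) and Cbr2 (0.461, in scaled log2 units). Those most like Gata3 were Tspan2 (0.100), Fabp7 (0.138) and Mmp15 (0.166). With 2 genotypes these distances mainly compare the size of the genotype difference, and Clca3a2 and Cbr2 had log2 fold changes of 4.92 and 4.87, Tspan2, Fabp7 and Mmp15 of 3.09, 3.02 and 2.96. With normexp Foxa1 had 2.71, Tfap2b 2.05, Clca3a2 3.55 and Cbr2 4.7, so these changes were no longer of like size. Gata3 had 2.5 there, Tspan2 2.25, Fabp7 1.57 and Mmp15 1.6.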

How the data were processed

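RNA of 3 knockout and 3 hetero samples was read on 6 Agilent arrays in a single colour (Cy3). Spot values come from Feature Extraction 10.7.3.1 (Agilent), as the file headers and the submitters' processing notes say. Deposited scanner files hold intensities on a linear scale, and the processed signal used here had its background subtracted within each array, per the file headers, with no scaling between arrays. The deposited value table of 46598 probes, also intensities, equals this signal over a constant for each array (402 to 484), within 1% for 100% of its probes, and is thus linear and not centred by gene. Its column medians were 0.163, 0.159 and 0.159 for knockout replicates 1 to 3 and 0.161, 0.159 and 0.169 for hetero replicates 1 to 3. The choice of its probes was not analysed here.

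Of 62976 spots per array, 3671 controls and 102 to 129 outlier spots were left out. No spot was saturated. Spots of a probe were averaged as log2 values and scaled by each array's 75th percentile. Probes were named by RefSeq accession through a RefSeq table (GRCm38.p6; the array header names mm9), which matched 27235 of 55681 probes. A probe was kept if well above background on at least 3 of 6 arrays, judged for repeated probes by at least 50% of their spots. The brightest kept probe stood for a gene, and no named gene had kept probes called in opposite directions. Knockout was set against hetero by limma 3.58.1 (lmFit, eBayes; R 4.3.3) over all 15847 genes, and over all 35442 probes, without a covariate, at a Benjamini-Hochberg adjusted p of 0.05. The fit was tested on simulated data. On 399 probes with at least 3 spots, the median SD was 0.0511 between arrays of a genotype and 0.0784 between spots of an array, in log2 units. The number of arrays limits the precision. Replicate numbers come from the labels.

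The 10 genes, the pathway and marker lists and the settings tried were chosen with earlier results of these data known. Lists are described by counts and medians beside all genes. The text names the 10 genes, Frs3, up to 4 tested genes with the smallest p per pathway list, up to 2 per marker list and the 3 nearest profiles to Foxa1 and to Gata3. Other genes named are marked as picked after their values were seen, except those named because they failed a filter or as the exception in a count. The files hold no mean spot signal, so normexp (offset 50) was run on the median spot and background signals. Other settings were quantile, median and spike-in scaling (245 spots), other filters, averaged probes, replicate or slide row as a block, the deposited table, and each array left out. Gene list counts under these settings, and the comparison with luminal markers with and without Muc1 and with normexp, were added after the data were seen. Values of 2 listed genes are not reported here.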

Additional observations from a re-analysis of the deposited data

How the results depend on the processing

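The 16 settings other than the reported one left the direction of 9 of the 10 genes as reported, and the call of 8 in every setting that tested them; Pgr and Esr1 changed calls as given with their values. Foxa1, Pgr and Tfap2b were not tested under the filter that asked for signal above background on every array, where 6 of the 7 genes tested were higher. Scaling to spike-in RNA gave all genes a median of 0.39, against -0.03, with 11534 genes higher and 1233 lower (90.3% of calls higher, against 46.1%) and 21459 probes higher and 1916 lower, against 4417 and 5157 genes and 6871 and 9772 probes. Changes are therefore relative to the other genes of an array. With this scaling Esr1 (0.38), Ncoa1 (0.03), Zfpm2 (0.11) and Cldn5 (0.05 against -0.38) changed sign, and Cd3e (-0.14 against -0.56) lost its call. With normexp 1 of the 10 genes, Esr1, was lower, against 0 as reported; the cause was not tested. Leaving out each array in turn gave 3903 to 4113 genes higher and 4575 to 4861 lower, and 8 to 9 of the 10 genes higher. With the replicate block, 3938 genes were higher, 4568 were lower and 9 of the 10 genes were higher. Deviations of arrays with the same replicate number correlated at -0.12, -0.02 and -0.01 for replicates 1 to 3. No pairing by number was visible, but with 3 arrays per genotype this check cannot exclude one. Genes near background, among them Esr1, Foxa1, Pgr and Tfap2b in hetero spheres, are limited by signal over background.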
